A study of Mus musculus with 6 samples.

Results

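Agbl4 and Nav3 are a pair of very long mouse genes whose proteins act on microtubules, and RNAs assembled inside their introns were lower in pancreatic islets of mice on a high-fat diet than in islets of mice on chow. The entries described here are the 17 transcripts whose interval overlapped the annotated body of Agbl4 (11 transcripts) or of Nav3 (6 transcripts) more than any other gene, out of 3093 long non-coding RNA (lncRNA) transcripts in the deposited table. Both genes were picked because their transcripts had low diet ratios in this same table, so the differences between diets below are a description and carry no test. The samples were islets, the endocrine cell clusters of the pancreas, from C57BL/6 mice kept for 8 weeks on normal chow (NCD, 3 libraries) or on a diet named high-fed in the labels and HFD in the titles (3 libraries). No transgene, deletion or agent is given for either group, and age, sex and pooling of animals are not given in the labels. The db/db mice of the series title are not analysed here. The table holds 1 FPKM value per diet group and transcript, that is, a fragment count scaled to transcript length and sequencing depth, and no value per library. No difference below therefore has a replicate check, and no standard deviation can be given. In bulk islets, fewer cells of a type and less RNA per cell cannot be told apart.

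Microtubules are hollow filaments of tubulin that carry cargo through the cell, and in islet beta cells they form a dense network that governs how many insulin granules reach the cell surface. Agbl4 encodes a cytosolic carboxypeptidase that shortens the glutamate chains which tubulin tyrosine ligase-like enzymes add to tubulin, one of the modifications that tune how motors and severing enzymes use the filament. Nav3 encodes neuron navigator 3, a large protein that binds growing microtubule ends and is known mostly from the nervous system. Neither protein nor its mRNA was measured by the entries described here. A gene name says only where a transcript lies.

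Agbl4 lies on the plus strand of chromosome 4 (GRCm38, chr4:110397661-111664324, 1266664 bases) and Nav3 on the minus strand of chromosome 10 (chr10:109681259-110456204, 774946 bases), as annotated in GENCODE M21. All 17 intervals were wholly intronic and touched no annotated exon, and 0 of them lay in a second gene. In the principal Agbl4 transcript, Agbl4-206, 1 interval lay in intron 1, 7 lay in intron 3 (375 kb) and 3 in intron 6 (195 kb). The other introns of that transcript held none. Between the first and last start in intron 3 there were 107 kb, and in intron 6 there were 34.4 kb. The entries in the table thus formed 2 clusters and 1 single site rather than an even spread. Of the 26 consecutive locus numbers from the first to the last Agbl4 entry, 15 are absent from the table. The spacing therefore describes the listed entries only, not all RNA along the gene. In Nav3, 1 interval lay 4.30 kb from the annotated gene start and the other 5 lay within 104 kb of each other in a 313 kb intron. These introns belong to Nav3-202, an annotated transcript of 5 exons with the retained-intron biotype. The principal protein-coding transcript, Nav3-201 with 39 exons, starts 456 kb inside the gene body and contained 0 of the 6 intervals. Every Nav3 entry thus lay upstream of the start of Nav3-201. RefSeq also extends the gene to position 110455722, close to the start of Nav3-202.

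The sequences of the intronic intervals themselves were not used here. The exons that bracket the 3 introns holding 15 of the 17 entries are shown to place the entries in the gene, read from the GENCODE M21 transcript sequences (GRCm38), 5′ to 3′ on the strand of the gene. Capitals mark the 10 exon bases that adjoin the intron holding the entries. The 4 Agbl4 exons are coding. Nav3-202 has no annotated coding sequence, and only the last 60 bases of its 409-base exon 3 are printed.
Agbl4 exon 3, chr4:110580051-110580175, plus strand, before the intron with 7 entries: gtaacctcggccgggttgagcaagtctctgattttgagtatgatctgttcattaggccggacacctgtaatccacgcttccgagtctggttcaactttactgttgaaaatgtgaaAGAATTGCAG
Agbl4 exon 4, chr4:110955567-110955661, plus strand, after that intron: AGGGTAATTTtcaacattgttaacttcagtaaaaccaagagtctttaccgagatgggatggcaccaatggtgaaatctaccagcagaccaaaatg
Agbl4 exon 6, chr4:111331240-111331279, plus strand, before the intron with 3 entries: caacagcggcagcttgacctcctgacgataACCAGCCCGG
Agbl4 exon 7, chr4:111526584-111526673, plus strand, after that intron: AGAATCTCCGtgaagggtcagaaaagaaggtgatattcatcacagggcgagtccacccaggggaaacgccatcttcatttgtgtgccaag
Nav3 exon 3 of Nav3-202, chr10:110216702-110216761, minus strand, before the intron with 5 entries: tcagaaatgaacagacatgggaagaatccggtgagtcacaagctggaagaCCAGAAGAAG
Nav3 exon 4 of Nav3-202, chr10:109903746-109903863, minus strand, after that intron: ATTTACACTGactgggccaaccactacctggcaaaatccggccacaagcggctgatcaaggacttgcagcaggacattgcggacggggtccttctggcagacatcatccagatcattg

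The table names no strand, but its locus numbers carry an order that bears on it. On each of the 21 chromosomes with more than 1 transcript, the numbers ran along the chromosome, jumped back once by at least 47.7 Mb and ran along it again, apart from 5 smaller steps back of at most 118110 bases. The first series is read here as the plus strand and the second as the minus strand. All 4 transcripts in the table that share start and end with an annotated transcript were in the series of their annotated strand. All 17 entries in Agbl4 and Nav3 were in the series of their own gene's strand, Agbl4 in the first and Nav3 in the second. This was also the common case: 1879 of 2054 intronic transcripts (91.5%) were in the series of their host gene's strand, against 321 of 546 transcripts that touched an exon (58.8%). If the reading of the series holds, the entries are sense RNA of their host introns, and they cannot be told apart from unspliced RNA of Agbl4 and Nav3. The Agbl4 entries took 11 of the 26 consecutive locus numbers between the first and the last of them, and the Nav3 entries 6 of 7, with no other gene's transcript among those numbers in the table. The remaining numbers, 15 in Agbl4 and 1 in Nav3, are not analysed here.

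In Agbl4, every transcript had a lower FPKM in HFD than in NCD, and all 11 were at least 2-fold lower on the scale of log2 of (HFD + 0.1)/(NCD + 0.1), which understates the change of low transcripts. Over all transcripts of the table, 80% had a lower value in HFD and 41.9% met that 2-fold size, and because the gene was chosen on this contrast nothing is read from the count. The transcript nearest the gene start stood apart. It lay in intron 1, 59.6 kb from the start (chr4:110457245-110457607, 363 bases), with 16.4 FPKM on chow against 2.19 on the high-fat diet (log2 ratio -2.85). It had the highest level of all 17 entries in both groups and the lowest ratio in Agbl4. The other 10 ran from 2.25 to 6.35 FPKM in NCD and from 0.746 to 2.08 in HFD, with log2 ratios between -1.95 and -1.34. These ranges are over different transcripts of a gene chosen for low ratios, so nothing is read from their separation.

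Within intron 3, the cluster opened 280 kb from the gene start with a 2211-base transcript (chr4:110677777-110679987) at 4.36 FPKM (NCD) and 1.05 FPKM (HFD), log2 ratio -1.95, the lowest ratio of the 7. The next, 1098 bases at chr4:110682622-110683719, was at 2.80 and 0.829 FPKM (-1.64). A 1645-base transcript at chr4:110684831-110686475 was at 2.63 and 0.974 FPKM (-1.34), the ratio closest to 0 of all 17. These 3 neighbours, which start within about 7 kb of DNA, thus already covered the whole range of ratios seen in the cluster. The longest entry of either gene, 12115 bases at chr4:110694642-110706756, was at 3.50 and 1.05 FPKM (-1.65). Farther in, a 2545-base transcript at chr4:110747566-110750110 was at 2.98 and 1.04 FPKM (-1.44). A 462-base transcript at chr4:110772289-110772750 was at 6.35 and 2.08 FPKM (-1.57), the highest level of the cluster in both groups. The last, 2320 bases at chr4:110784897-110787216, was at 2.72 and 0.773 FPKM (-1.69). Levels within the intron did not follow the order of the sites in either diet.

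In intron 6, some 590 kb beyond the previous entry, the 3 transcripts showed ratios like those of intron 3. The 9541-base transcript at chr4:111375333-111384873 had 2.25 FPKM on chow and 0.746 on the high-fat diet (-1.47), the lowest level of any Agbl4 entry in both groups. Next to it, 1238 bases at chr4:111385036-111386273 were at 3.94 and 1.05 FPKM (-1.81). The last, 654 bases at chr4:111409775-111410428, was at 4.06 and 1.06 FPKM (-1.85). The median log2 ratio was -1.81 in intron 6 and -1.64 in intron 3, and the 2 ranges overlapped. Levels in introns 3 and 6 overlapped in both groups. The intron 1 site stood above them in NCD, at 16.4 against at most 6.35 FPKM, while in HFD its 2.19 FPKM was close to the 2.08 of the highest site in intron 3.

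**Figure D1:**
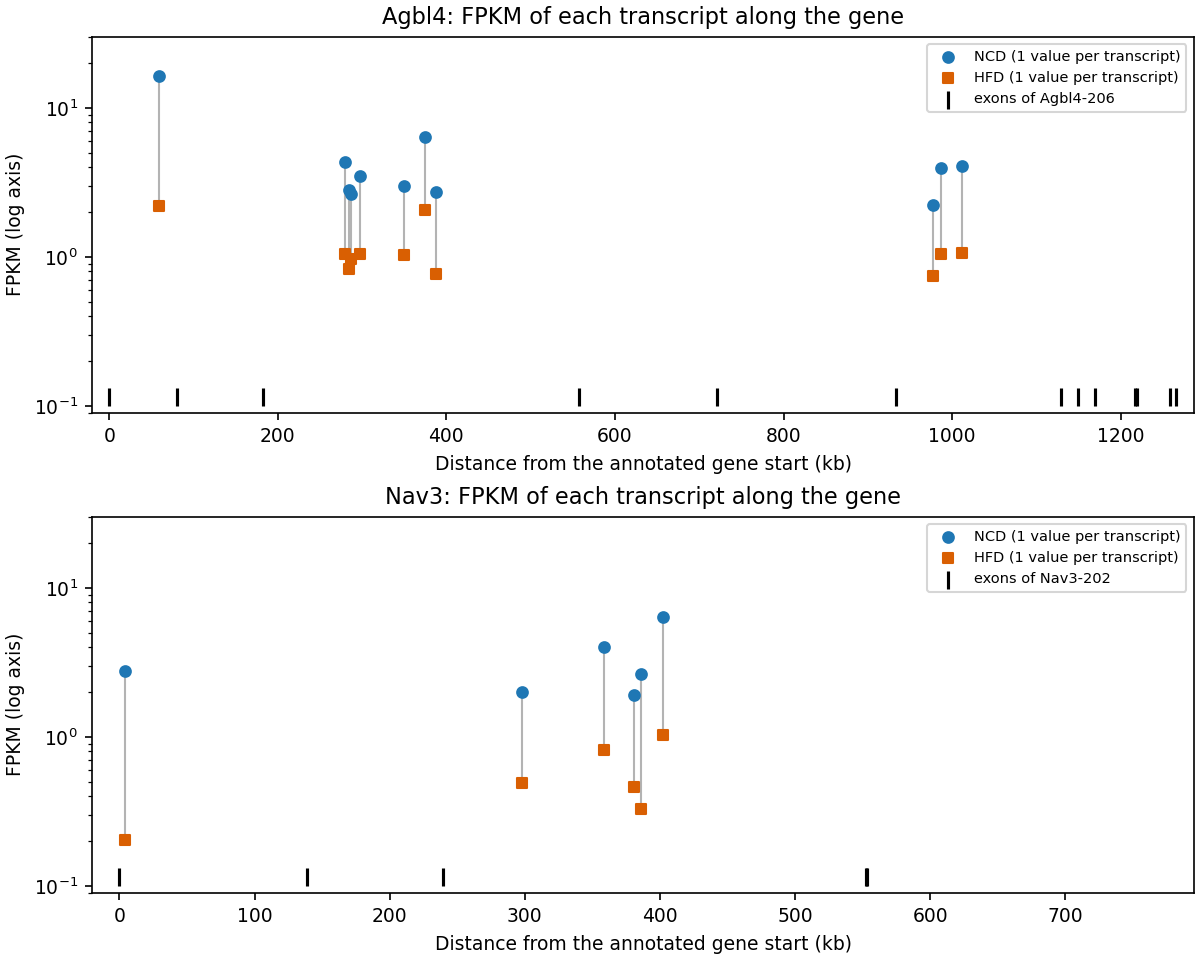
FPKM (log axis) of each Agbl4 transcript (upper panel) and Nav3 transcript (lower panel) against the distance from the annotated gene start in kb; circles are NCD, squares are HFD, grey lines join the 2 values of a transcript and black ticks are exons of the named annotated transcript. All 17 squares lie below their circles, and the transcripts listed in the table sit in clusters or alone within single introns.

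In Nav3, all 6 transcripts were lower in HFD too, and 4 of them were at least 4-fold lower, a size reached by 11.8% of the whole table. The entry 4.30 kb from the gene start (chr10:110451374-110451908, 535 bases) had 2.77 FPKM on chow and 0.202 on the high-fat diet, and its log2 ratio of -3.25 was the lowest of all 17. Its NCD level was ordinary for the gene. Its HFD level was the lowest of either gene.

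The 5 Nav3 entries of the large intron were ordered along the direction of transcription as follows. At 298 kb, 767 bases (chr10:110157259-110158025) had 2.01 FPKM on chow and 0.495 on the high-fat diet (-1.83). At 359 kb, 727 bases (chr10:110096872-110097598) were at 3.99 and 0.823 FPKM (-2.15). At 381 kb, 934 bases (chr10:110074710-110075643) were at 1.93 and 0.463 FPKM (-1.85), the lowest NCD level of the 17. At 386 kb, 1122 bases (chr10:110068945-110070066) were at 2.64 and 0.328 FPKM (-2.68). At 402 kb, the last and shortest, 432 bases (chr10:110053807-110054238), was at 6.39 and 1.03 FPKM (-2.52), the highest Nav3 level in both groups. Over its transcripts, the NCD values of the gene ran from 1.93 to 6.39 FPKM and the HFD values from 0.202 to 1.03. The 2 genes overlapped in their ratios, from -2.85 to -1.34 in Agbl4 and from -3.25 to -1.83 in Nav3, and their medians were -1.65 and -2.33. In both genes the entry nearest the gene start had the lowest ratio, which rests on 1 transcript per gene.

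The steps of the low FPKM values gave an estimate of the fragments behind each entry. A sequencing total and a mean fragment length were fitted on a randomly drawn portion of the transcripts. In the portion kept back, 167 of 168 low HFD values (99.4%) and 76 of 97 low NCD values (78.4%) came out as whole fragments within 0.15, where 30% would by chance. The totals used below came from a second fit, on both portions together. They were 78.4 for HFD and 63.2 for NCD (in units of 1e6 fragments), where the first portion alone had given 78.4 and 62.1. The NCD figure is the less certain, and the estimates assume that a column comes from a single pool of fragments and that each transcript is unspliced. They cover the 15 entries of up to 3000 bases, and the check of whole steps covers only spans of 250 to 1000 bases. The 9 Agbl4 entries stood on an estimated 69.6 to 529 fragments each in NCD and 14.1 to 184 in HFD, and the 6 Nav3 entries on 43.1 to 139 in NCD and 3.98 to 28.6 in HFD. Summed, this is 2152 against 775 fragments for Agbl4 and 490 against 109 for Nav3. The lowest ratio, that of the Nav3 entry near the gene start, thus rests on about 4 HFD fragments.

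The estimated fragments give each ratio an exact 95% counting interval, taken without the added 0.1. It covers counting error only, not variation between mice or libraries. The entries were chosen for low ratios, so the intervals are used here only to compare entries of the same gene. Within Nav3 the 6 intervals all contained the gene's own median of -2.45 on that scale. That median comes from the same 6 ratios, so whether they differ from each other was not tested. Within Agbl4, 7 of 9 contained the gene's median of -1.75 on that scale. The exceptions were the intron 1 entry, with an interval of -3.84 to -2.08, and the first entry of intron 3, with -2.31 to -1.79.

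**Figure D2:**
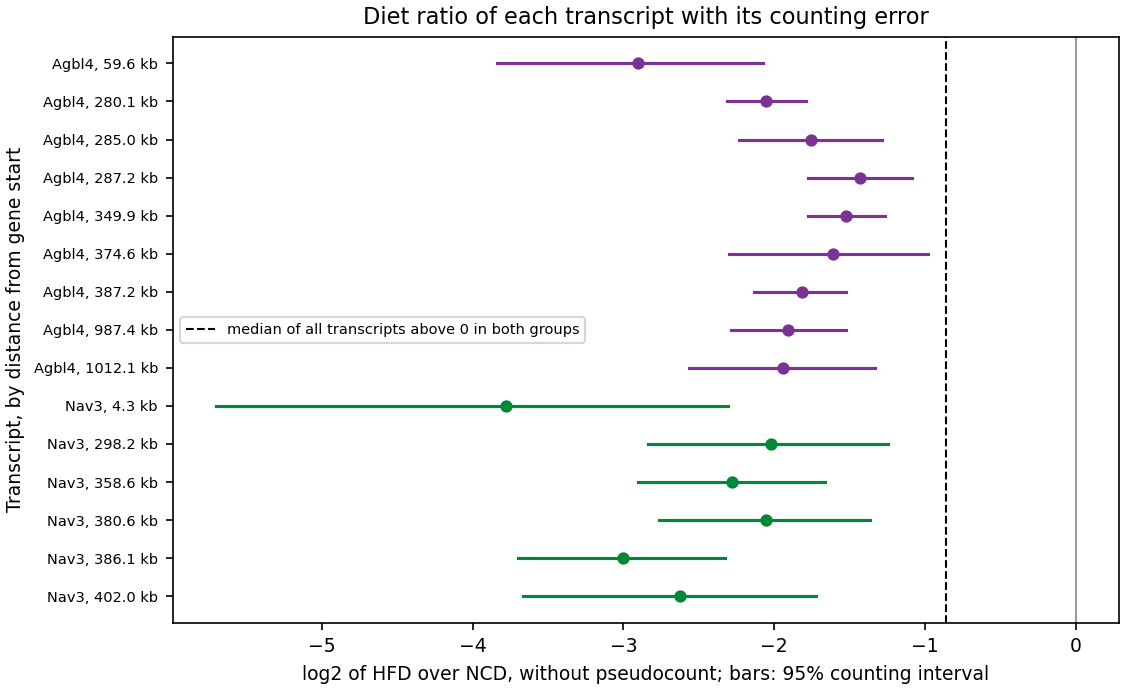
Log2 ratio of HFD over NCD without pseudocount (points) for the 15 entries of up to 3000 bases, with exact 95% counting intervals (bars), listed by gene and distance from the gene start; the dashed line shows, for orientation, the median of all transcripts above 0 in both groups (-0.86). The Nav3 bars are mostly wider than the Agbl4 bars, and the widest, from -5.71 to -2.31, belongs to the Nav3 entry 4.3 kb from the gene start.

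The table as a whole was lower in HFD, so the entries were set beside it. The median log2 ratio was -0.82 over all 3093 transcripts and -0.98 over the 2054 intronic ones, of which 48.8% were at least 2-fold lower. After subtracting the table's median, the median was -0.83 for Agbl4 and -1.51 for Nav3. On that scale 464 of the 3093 transcripts (15%) were at least 2-fold lower, among them all 6 Nav3 entries and 3 of the 11 Agbl4 entries, which were chosen on this contrast. Of the 2054 intronic transcripts, 91 had a ratio below that of the lowest Nav3 entry and 119 one below that of the lowest Agbl4 entry. Each entry by itself is thus within the spread of single intronic transcripts.

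**Figure D3:**
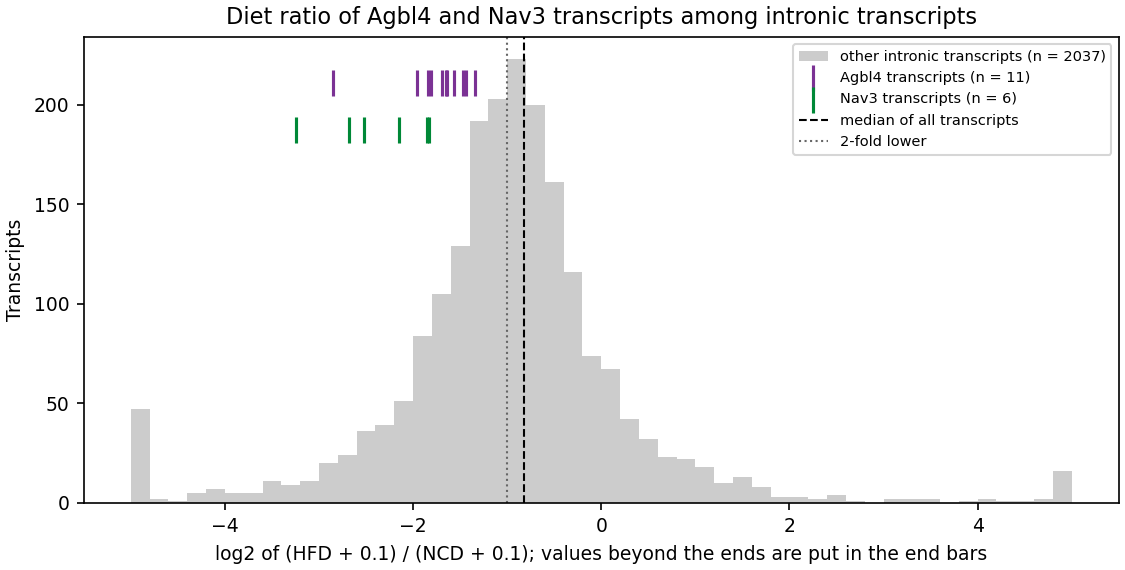
Histogram of the log2 ratio of the 2037 other intronic transcripts (grey) with the 11 Agbl4 and 6 Nav3 entries as coloured ticks; the dashed line is the median of all transcripts and the dotted line marks 2-fold lower. All 17 ticks lie left of the dotted line, inside the lower flank of the grey distribution.

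The entries were also set beside other long genes. In 88 other protein-coding genes of 500 kb or more, a class chosen after the values were seen, 344 intronic transcripts had a median log2 ratio of -1.004 and quartiles of -1.53 and -0.40. Among the 25 genes of this length with at least 5 intronic transcripts, Agbl4 and Nav3 included, gene medians ran from -2.64 (Ptprd) to 0.63 (Inpp4b). Nav3 was second from the lowest and Agbl4 in place 4. Both were chosen for low ratios, so nothing is read from these places. The entries were also set beside the strand series. Intronic transcripts of other genes in the series of their gene's strand, the class to which all 17 entries belong, had a median of -0.99 (1862 transcripts), and those in the opposite series -0.75 (175 transcripts).

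Level and span were linked across the table, so levels were read within span classes. Other intronic transcripts of 200 to under 400 bases had a median of 4.62 FPKM in NCD, against 2.26 for those of 1000 to under 3000 bases. The 363-base Agbl4 entry in intron 1, at 16.4 FPKM, was above that median, and 54 of the 529 other intronic transcripts of 200 to under 400 bases were higher still. Over 5 span classes, 13 of the 17 entries were above the NCD median of their class and 15 were below the HFD median. The 7 entries of 1000 to under 3000 bases, 6 in Agbl4 and 1 in Nav3, were on both counts (class medians of 2.26 FPKM in NCD and 1.17 in HFD). The choice of entries with low ratios favours both counts, so nothing is read from them.

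**Figure D4:**
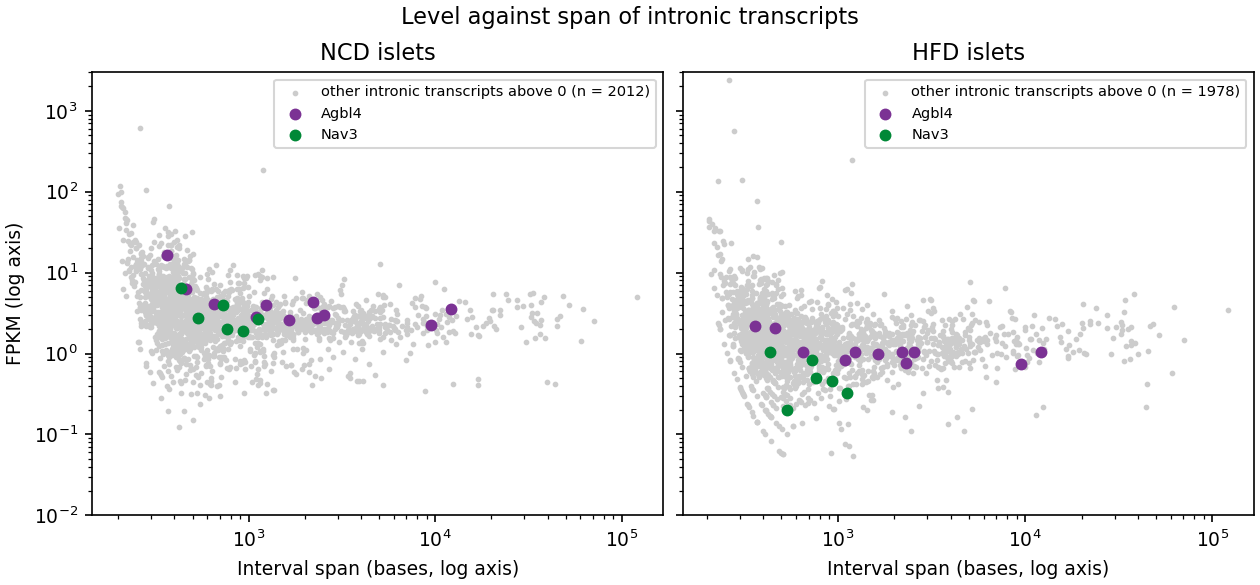
FPKM against interval span in bases (both log axes) for other intronic transcripts above 0 (grey) and for the Agbl4 and Nav3 entries (coloured), in NCD (left) and HFD (right). In NCD the entries lie at 1.93 to 16.4 FPKM within the grey cloud, and in HFD at 0.202 to 2.19, mostly in its lower part.

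Across the 67 genes holding at least 5 transcripts, the medians closest to that of Agbl4 belonged to Tnik, a kinase gene (-1.59, 7 transcripts), the potassium channel gene Kcnq5 (-1.59, 8 transcripts) and Mid1, which encodes a microtubule-binding ubiquitin ligase (-1.53, 6 transcripts). Closest to Nav3 were Dpp10, a potassium channel-associated protein gene (-2.03, 7 transcripts), the receptor phosphatase gene Ptprd (-2.64, 7 transcripts) and Zbtb16, a zinc-finger transcription factor gene (-2.68, 5 transcripts). Every transcript in these 6 genes was lower in HFD, against 80% of the table. The genes were picked for medians near those low ones, so nothing is read from that count. Likeness here is the distance between median log2 ratios over 2 diet groups, a thin measure. In level they differed: the Kcnq5 transcripts had median values of 0.591 FPKM in NCD and 0.123 in HFD, while those in Tnik were at 3.46 and 1.23, next to 3.50 and 1.05 in Agbl4.

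Of 119 listed genes for tubulins, their modifying enzymes, motors and microtubule-binding proteins, 15 held a transcript, 23 transcripts in all. Of these 16 were lower in HFD (69.6%, against 80% of the table) and 7 higher, 12 were at least 2-fold lower (52.2%, against 41.9% of the table) and 1 was at least 2-fold higher (6.27% of the table). All 6 transcripts in the gene Mid1 were among the 12, so the 2-fold share leans on that gene. The median log2 ratio was -1.002, itself the value of a Mid1 transcript and close to that of intronic transcripts in general.

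The listed family members of both genes that held a transcript had single ones, which were higher in HFD. Agbl1, another carboxypeptidase gene of the Agbl4 family, had a 436-base intronic transcript (chr7:76243190-76243625) with 0.434 FPKM on chow and 1.09 on the high-fat diet (log2 ratio 1.16). Nav2, a navigator gene, had a transcript over an exon (chr7:48947832-49001774) at 0.666 and 0.744 FPKM (0.14). Of the ligases that build the glutamate chains, Ttll5 had an intronic transcript at 1.35 and 1.54 FPKM (0.18). The Nav2 and Ttll5 values hardly differed between diets, and all NCD levels here were below those of the 17 entries. Over the whole table, 80% of transcripts were lower in HFD. The 17 entries were chosen for low ratios and these transcripts were named after their values were seen. Nothing is therefore read from the contrast. The other 4 carboxypeptidase genes, the other 12 ligase-like genes and Nav1 held no transcript in the table.

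The 6 listed genes with the highest transcripts were Mtcl1, Mid1, Map7, Pafah1b1, Kif13b and Mapt. The microtubule crosslinker gene Mtcl1 had 14.3 FPKM on chow and 7.29 on the high-fat diet (log2 ratio -0.96), and the highest of 6 Mid1 transcripts, all lower in HFD, was at 13.3 and 3.45 FPKM (-1.91). Map7, which encodes a microtubule-binding cofactor of kinesin, held 2 intronic transcripts. They were at 8.70 and 3.17 FPKM (-1.43) and at 5.32 and 2.37 FPKM (-1.13). The 2 transcripts in the dynein regulator gene Pafah1b1 differed in direction, at 4.33 and 1.70 FPKM (-1.30) for the one over an exon and 0.452 and 0.935 FPKM (0.91) for the intronic one. The kinesin gene Kif13b was at 3.03 and 2.72 FPKM (-0.15). Mapt, the gene of the axonal protein tau, was at 2.40 and 3.35 FPKM (0.46). Mid1, with 6, was the only listed gene holding more than 2 transcripts. Several transcripts lower together could therefore be seen only there, and nothing is read from that likeness to Agbl4.

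Transcripts around the 2 genes were few. Within 1 Mb of Agbl4 the table had 2, the nearer 951 kb away, at log2 ratios of -1.03 and 0.43, and within 1 Mb of Nav3 it had 2 over Zdhhc17, 486 and 538 kb away, at -0.62 and 0.07. These 4 were closer to 0 than any of the 17 entries. Because the entries were chosen for low ratios, nothing is read from this difference. Cell type could be checked little. Of 39 marker genes of 11 cell types, 3 held a transcript. The islet transcription factor genes Isl1 and Pax6 had a summed 11.7 FPKM in NCD and 5.99 in HFD. Epcam, listed here under duct, was at 21.8 and 5.01 FPKM. These are lncRNA entries lying in the genes, not the mRNA of the markers. The defining beta cell genes Ins1 and Ins2, and all listed neural, Schwann, endothelial, stromal and immune markers, held none. In a table of lncRNA transcripts, that absence says nothing about which cells were present. The sum for Isl1 and Pax6 and the value for Epcam were lower in HFD, as were 80% of transcripts in the table. The part of cell composition in the results was not tested.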

How the data were processed

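The authors deposited 1 table of lncRNA transcripts listing an interval, 2 identifiers and 1 FPKM value for each diet, per the file headers. The submitters' processing notes name the builds GRCm38 and mm10. Aligner, assembler, quantifier, and the way the 3 libraries of a diet entered its column are not stated there, so a value could come from a pool, a mean or a single library. Of value columns outside the diet groups there were 0.

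Intervals were placed on GENCODE M21 (GRCm38), each with the gene covering most of it. The diet ratio was log2 of (HFD + 0.1)/(NCD + 0.1). Requiring 0.1 FPKM in at least 1 diet removed 0 transcripts. Counting intervals are exact binomial (scipy 1.17.1). The ratio and the fit of fragment steps were tested on simulated data. The genes, lists and tests were chosen with earlier results of these data known. Named were all Agbl4 and Nav3 transcripts, the 6 microtubule genes with the highest transcripts, and the 3 genes (5 or more transcripts) nearest in median to each gene. Agbl1, Nav2, Ttll5, Ptprd and Inpp4b as extremes, and the flanking transcripts, were named after their values were seen. The planned base composition of the intervals was not computed, since no genome sequence was used here. Alternatives tried were 2 pseudocounts, median centring, quantile normalization, span and level minimums and a 4-fold rule.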

Additional observations from a re-analysis of the deposited data

How the results depend on the processing

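No paired analysis was possible because values per library are not part of the table, which also meant that leaving out a library could not be tried. Recomputing the 17 ratios under 2 pseudocounts, median centring and quantile normalization gave 68 values. All fell below 0, with extremes of -3.71 and -0.52, and 48 kept a drop of 2-fold or more. A pseudocount cannot change a sign. Nor could median centring here, which subtracts the table's median of -0.82, since the highest of the 17 ratios was -1.34. Quantile normalization gave ratios close to the centred ones. Nothing is therefore read from the count below 0. With a pseudocount of 1 FPKM the medians were -1.14 for Agbl4, -1.45 for Nav3 and -0.70 for the microtubule list, and with 0.01 that of Nav3 was -2.44. Median centring gave -0.83, -1.51 and -0.18, and quantile normalization -0.82, -1.49 and -0.18. Under either scaling 3 Agbl4 transcripts stayed at least 2-fold lower, against 11 as deposited. As deposited, 1 Agbl4 transcript passed a 4-fold rule. Keeping transcripts of at least 1 FPKM in both groups gave -1.81 for Agbl4 (7 left) and -2.52 for Nav3 (1 left). For the whole table, those at least 2-fold lower numbered 1297 as deposited, 689 with a pseudocount of 1, 464 after centring and 461 after quantile normalization, and those at least 2-fold higher 194, 101, 493 and 500. Leaving out the intron 1 entry of Agbl4 (spans of at least 400 bases) left its median at -1.65. The depth limits the Nav3 entry near the gene start most, at about 4 HFD fragments.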
